A study of Mus musculus with 7 samples.

Results

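Glial stress and retinal injury genes were examined in lens epithelium of SPARC-null (KO) and wild-type (WT) mice. The set held 10 genes: the intermediate filament genes Gfap and Nes, the glutamate and water handling genes Glul, Slc1a3 and Aqp4, the secreted response genes Serpina3n and Lcn2, the ligands Edn2 and Fgf2, and the lipid carrier Apoe. They were measured by 22 probe sets, out of 34945 with a single gene symbol and 45037 in all. The genes were chosen by their use as markers of Mueller glia or of retinal stress, and partly on the readout itself, since Gfap and Serpina3n had been seen higher in KO lenses of this same comparison. Their KO and WT values are therefore described here, and counts of small p-values among them are not read as a test.

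Lens epithelial cells were laser-captured from stained cryosections, and the RNA of each lens went onto its own Affymetrix mouse array after amplification in 2 cycles. All mice were 28 days old, of 1 litter and on a C57Bl/6 background. The KO group held 4 lenses of 3 SPARC-null animals (1L and 1R of female 1, 4L of female 4, 7L of male 7), and the WT group 3 lenses of 3 wild-type females (2L, 5L, 6L). Animals are separate mice, so 1L and 1R were averaged before fitting, which leaves n = 3 animals per group. The part of Sparc that the null allele lacks was not given in the sources used here.

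Mueller glia are the radial glia that span the retina. They clear glutamate and potassium and move water, and they answer many kinds of retinal damage with gliosis, in which Gfap is induced and Stat3, the transcription factor downstream of gp130 cytokines, is activated. Stressed photoreceptors make endothelin 2, and glia then make protective factors such as Fgf2. The lens epithelium is not neural tissue, but it lies close to the ciliary body, and mouse lens epithelium is itself known to hold some Gfap.

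Promoters are shown for 3 genes. Gfap and Serpina3n were named in the choice of genes, and Gfap and Slc1a3 were the members whose window held a STAT match. The sequences are from RefSeq on GRCm38.p6, 5′ to 3′ in the direction of the gene, from 250 bases before the start to 30 after it, with capitals on the match:

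Gfap, chr11:102897171-102897450, minus strand: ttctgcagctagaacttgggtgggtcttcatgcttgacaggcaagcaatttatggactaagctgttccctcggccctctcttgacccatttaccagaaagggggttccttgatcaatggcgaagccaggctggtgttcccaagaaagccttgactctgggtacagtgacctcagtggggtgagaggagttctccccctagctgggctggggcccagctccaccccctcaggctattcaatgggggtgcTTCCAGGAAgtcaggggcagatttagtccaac

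Slc1a3, chr15:8710778-8711057, minus strand: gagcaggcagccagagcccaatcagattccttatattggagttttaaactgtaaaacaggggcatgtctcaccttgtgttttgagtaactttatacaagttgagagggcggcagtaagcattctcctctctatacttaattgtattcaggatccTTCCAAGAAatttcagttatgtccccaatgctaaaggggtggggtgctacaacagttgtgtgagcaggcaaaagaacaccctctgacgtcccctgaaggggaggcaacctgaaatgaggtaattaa

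Serpina3n, chr12:104406458-104406737, plus strand: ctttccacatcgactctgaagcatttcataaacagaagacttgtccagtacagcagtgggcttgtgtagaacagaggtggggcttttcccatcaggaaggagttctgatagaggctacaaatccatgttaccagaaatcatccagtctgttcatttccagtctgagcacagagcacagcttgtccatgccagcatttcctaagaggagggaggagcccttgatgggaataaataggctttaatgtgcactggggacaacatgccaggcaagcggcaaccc

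The letters searched, on both strands, were TTCNNNGAA for STAT factors, which reads the same on either strand, and TGANTCA for AP-1. Windows of 300 bases, from 250 before to 50 after the start, were searched for 9 members with 11 promoters. A STAT match lay in 2 of them and an AP-1 match in 0. Over all 32851 promoters of that length, 8.30% held a STAT match and 7.81% an AP-1 match. The Gfap match, TTCCAGGAA, began at position -2 and so ran across the start, and the Slc1a3 match, TTCCAAGAA, began at position -96. These matches describe the letters only.

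The samples were checked against markers first. Sparc, at its brightest probe set, had deposited signals of 8.14 to 70.5 in the KO lenses, against 27370 to 49972 in the WT. Lens RNA was well represented. On the lens epithelium list, Cryaa and Cryab, the alpha crystallins, Col4a1, a capsule collagen, and Cdh1, the epithelial cadherin, were bright in all 7 lenses. Foxe3, a transcription factor of this epithelium, was an exception, with 3 of 4 KO and 1 of 3 WT lenses at or under the brightest of 27 bacterial control probe sets (signal 45.5), which have no target in mouse RNA and serve as the gauge of background here. Foxe3 was lower in KO by -1.02 (SE 0.46, limma adjusted p = 0.99988), while the 8 lens epithelium genes had a median of 0.03 (0.08 without WT animal 2). Lens fibre genes were bright as well, with Mip at 14535 to 28472 and Bfsp2 at 15520 to 31294 over the 7 lenses. Retinal RNA was present in every lens of both groups. The 11 measured rod genes, among them the rod transducin Gnat1 at 11809 to 21206, gave sums of 70192 to 105204 (KO) and 61573 to 114387 (WT), with 2 genes higher and 9 lower in KO (6 and 5 without WT animal 2). The WT array 2L stood apart, with the lowest maximum signal (28328, the next lowest 42153) and a Gapdh 3′ to 5′ signal ratio of 3.75 against 9.06 to 15.9 in the others, and the counts of members and of list genes are also given without that animal.

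At their brightest probe sets 8 of the 10 members had a higher mean in KO and 2 a lower one. One of the 8, Fgf2, was at background in every lens. The median of the 10 log2 differences was 0.34 (0.31 over the 9 without Fgf2), against -0.03 over the brightest probe sets of all 18193 genes. Without WT animal 2 there were again 8 higher and 2 lower, with a median of 0.70, which was also the median without KO animal 7. At limma's adjusted p of 0.05 the number of member probe sets past the threshold was 0 of 22, and 5, all higher in KO, had an unadjusted p under 0.05. Over all probe sets 0.00666% passed the adjusted and 4.06% the unadjusted threshold. Because members were picked partly on this contrast, and Gfap and Serpina3n are among the 5, nothing is read from these counts. The ranges of KO and WT lenses were separate at 1 of the 22, a Gfap probe set higher in KO, and at 0 in the other direction, where over all probe sets 2.56% lay wholly higher and 2.76% wholly lower in KO. In bulk RNA such as this, more cells of a type and more RNA per cell cannot be told apart.

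**Figure D1:**
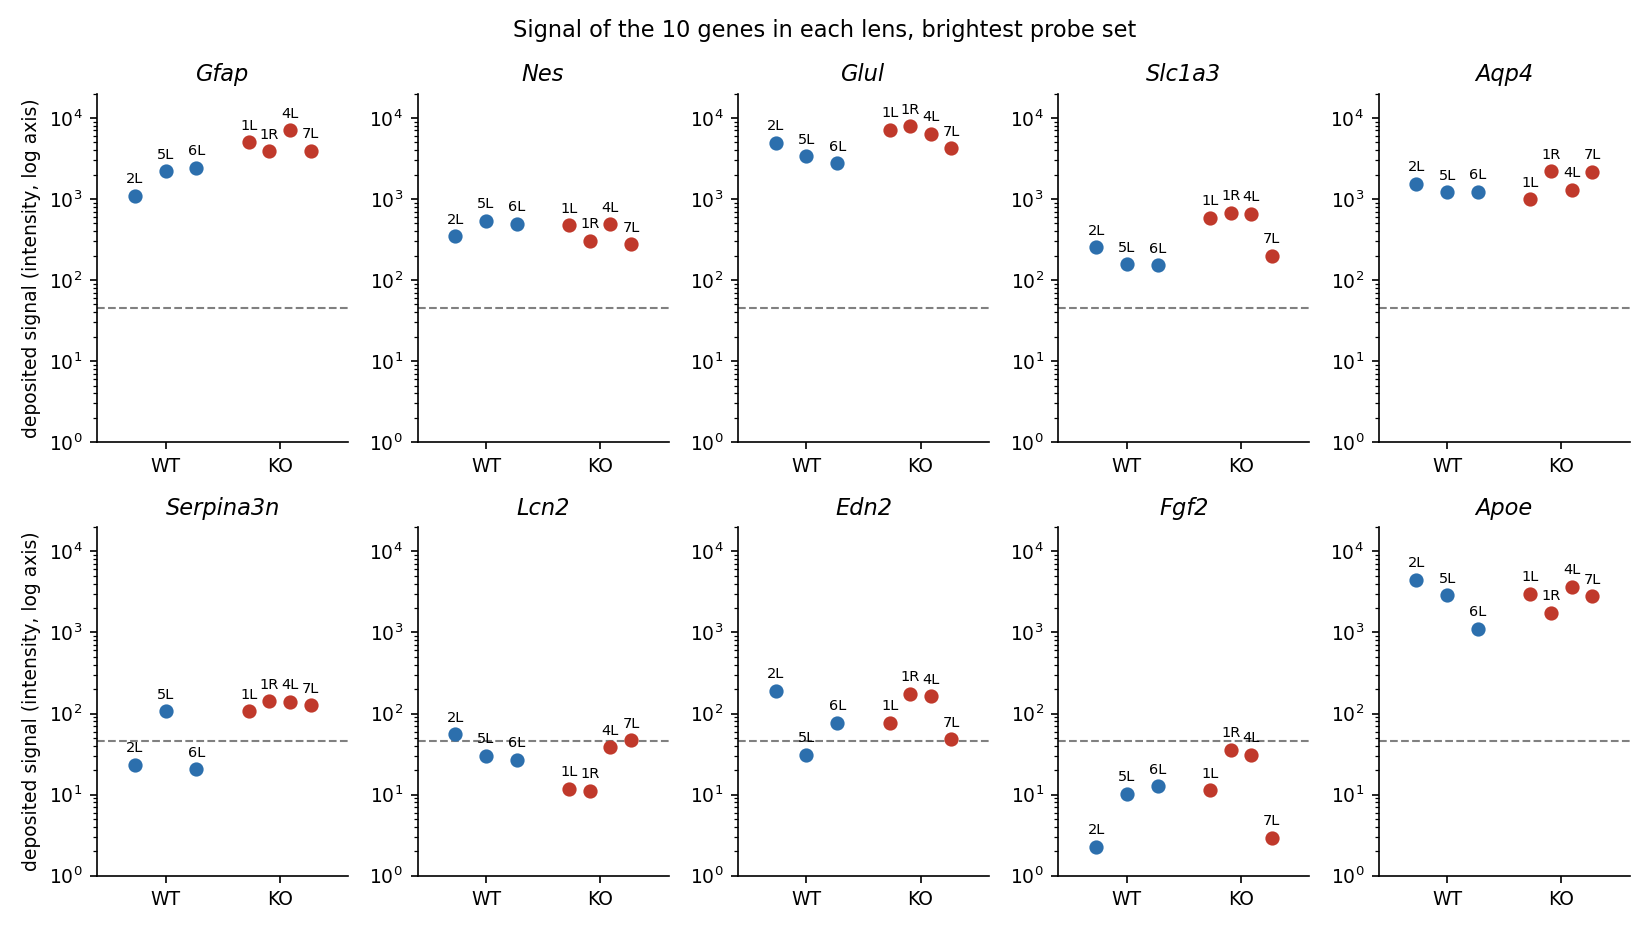
Deposited signal (log axis) of each of the 10 genes at its brightest probe set, 1 point per lens, WT in blue and KO in red; the dashed line is the highest bacterial control (45.5). The 4 KO lenses lie clearly above the 3 WT lenses for Gfap, for Serpina3n KO 1L (107) and WT 5L (106) are nearly level, and Fgf2 lies under the line in every lens and Lcn2 in 5 of 7.

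Gfap encodes the glial fibrillary acidic protein, the intermediate filament of astrocytes and of reactive Mueller glia. At its brightest probe set the KO lenses had signals of 5004 (1L), 3858 (1R), 7081 (4L) and 3912 (7L), and the WT lenses 1095 (2L), 2213 (5L) and 2432 (6L). The lowest KO lens thus lay above the highest WT lens, and the lenses of KO animal 1 lay close together. On the normalised log2 scale, log2 of the signal plus 16 after quantile normalisation, the level was 12.26 ± 0.39 in the KO animals and 10.79 ± 0.67 in the WT animals (SD, n = 3), a difference of 1.47 (SE 0.33) or 2.77-fold. The lowest WT value came from 2L, and without that animal the difference was 1.11.

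The other Gfap probe sets did not repeat this separation. The second brightest had signals of 1308 (1L), 248 (1R), 1650 (4L) and 461 (7L) in KO and 635 (2L), 525 (5L) and 646 (6L) in WT. Here 1L and 4L lay above all WT lenses and 1R and 7L below all of them, so the group means, 9.60 ± 1.00 and 9.27 ± 0.14, differed by 0.33 (SE 0.43). At the third the KO signals were 990, 271, 1275 and 387 in the same order of lenses and the WT signals 284, 277 and 430. Again 1L and 4L were highest of the 7, while 1R was the lowest, and the difference was 0.91 (SE 0.43). Both of these probe sets were designed on one sequence, and the brightest on another, per the platform annotation. The names of the brightest and the third carry the array maker's mark for probes shared by several transcripts, and that of the second does not.

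**Figure D2:**
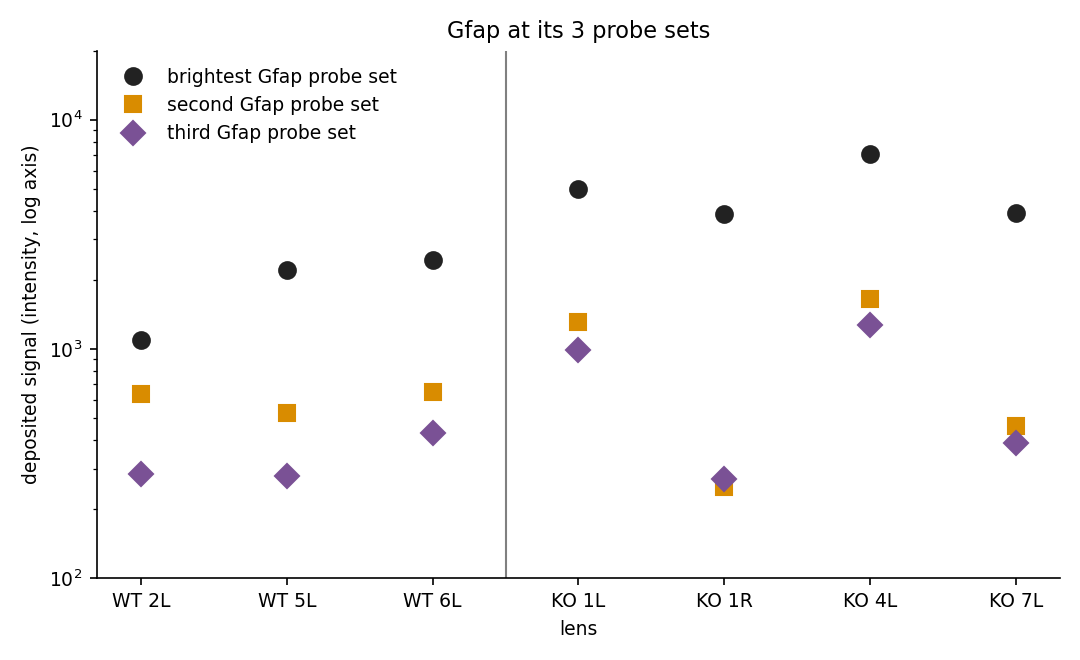
Deposited signal (log axis) of the 3 Gfap probe sets in each of the 7 lenses, WT left and KO right of the line. At the brightest probe set every KO lens is above every WT lens, whereas at the weaker ones 1L and 4L are high and 1R and 7L are not.

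Left and right eyes of KO animal 1 differed at those probe sets by more than the group means did: 1L was above 1R by 2.42 and by 1.88 on the log2 scale, but by 0.33 at the brightest. Over the brightest probe sets of the 10 members the median absolute difference between the 2 eyes was 0.48, over all 22 of their probe sets 0.76, and over all probe sets of the array 0.42. Gfap transcripts are known to end in more than one way, and which of them each probe set reads was not analysed here.

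Nes encodes nestin, an intermediate filament of neural progenitors that injured glia can make again. Its brightest probe set had signals of 477 (1L), 306 (1R), 486 (4L) and 275 (7L) in KO and 345 (2L), 536 (5L) and 492 (6L) in WT lenses. The groups overlapped, and the log2 difference was -0.29 (SE 0.31). The next probe set differed by -0.10 (SE 0.36), and the third by 0.59 (SE 0.38) with 6 of 7 lenses at or under the highest control. The separation of groups seen at the brightest Gfap probe set was thus not present at any Nes probe set.

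Of 11 other intermediate filament genes 5 were higher and 6 lower in KO (median -0.14), and 6 and 5 without WT animal 2 (median 0.02). The limma threshold was passed by 0 of them, and unadjusted p-values under 0.05 were found for 2, 1 in each direction. Vim, the vimentin gene and the filament partner of GFAP, had 19647 to 24166 in KO lenses and 22574 to 25986 in WT. Nefl, the light neurofilament chain of neurons, had 974, 1087, 498 and 1102 in KO (1L, 1R, 4L, 7L) against 462, 315 and 190 in WT (2L, 5L, 6L). It did not overlap between groups (log2 difference 1.39, SE 0.37, limma adjusted p = 0.99988). Bfsp1 and Bfsp2, the beaded filament genes of lens fibres, differed by -0.27 and -0.17.

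Glul encodes glutamine synthetase, which turns glutamate taken up by Mueller glia into glutamine, and is also made outside the retina. The brightest Glul probe set gave 7178 (1L), 7936 (1R), 6419 (4L) and 4233 (7L) in KO and 4920 (2L), 3376 (5L) and 2755 (6L) in WT lenses. All KO lenses but 7L lay above every WT lens. Levels were 12.52 ± 0.40 in the KO animals and 11.83 ± 0.49 in the WT animals (SD, n = 3), a difference of 0.69 (SE 0.29). The weaker probe set differed by 0.46 (SE 0.29), and there 1R, at 323, was below the WT lenses 2L (595) and 5L (383).

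Slc1a3 encodes GLAST, the glutamate transporter of Mueller glia. At its brightest probe set KO lenses had 586 (1L), 679 (1R), 656 (4L) and 200 (7L), and WT lenses 254 (2L), 157 (5L) and 152 (6L). The same KO lens, 7L, sat within the WT range as for Glul, and the other 3 were more than 2-fold above any WT lens. The log2 difference was 1.16 (SE 0.45), and 1.71 without KO animal 7. The name of this probe set carries the array maker's mark for probes that may also match other transcripts.

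The other 5 Slc1a3 probe sets were weaker. Signals at the second were 164, 153, 96.2 and 171 in KO (1L, 1R, 4L, 7L) and 116, 25.8 and 43.2 in WT (2L, 5L, 6L), and the difference was 1.11 (SE 0.48). There 7L was the highest lens of all, so the order of KO lenses was not the same as at the brightest probe set. The third probe set differed by 0.73 (SE 0.71), with 6L at 2.73, and the rest by -0.03, -0.36 and -0.14, with 5 to 7 of 7 lenses at or under the highest control. The difference of the mean over all 6 probe sets was 0.41.

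Aqp4 encodes aquaporin 4, the water channel of Mueller glia endfeet. Its brightest probe set gave 992 (1L), 2203 (1R), 1307 (4L) and 2181 (7L) in KO and 1545 (2L), 1216 (5L) and 1221 (6L) in WT lenses. Groups overlapped (log2 difference 0.31, SE 0.23), and 1L was the lowest of the 7 lenses and 1R the highest. The remaining 2 probe sets were lower in KO, by -0.47 (SE 0.43) and -0.43 (SE 0.38), near background. The eyes of 1 animal were thus as far apart as any pair of lenses at the brightest Aqp4 probe set.

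**Figure D3:**
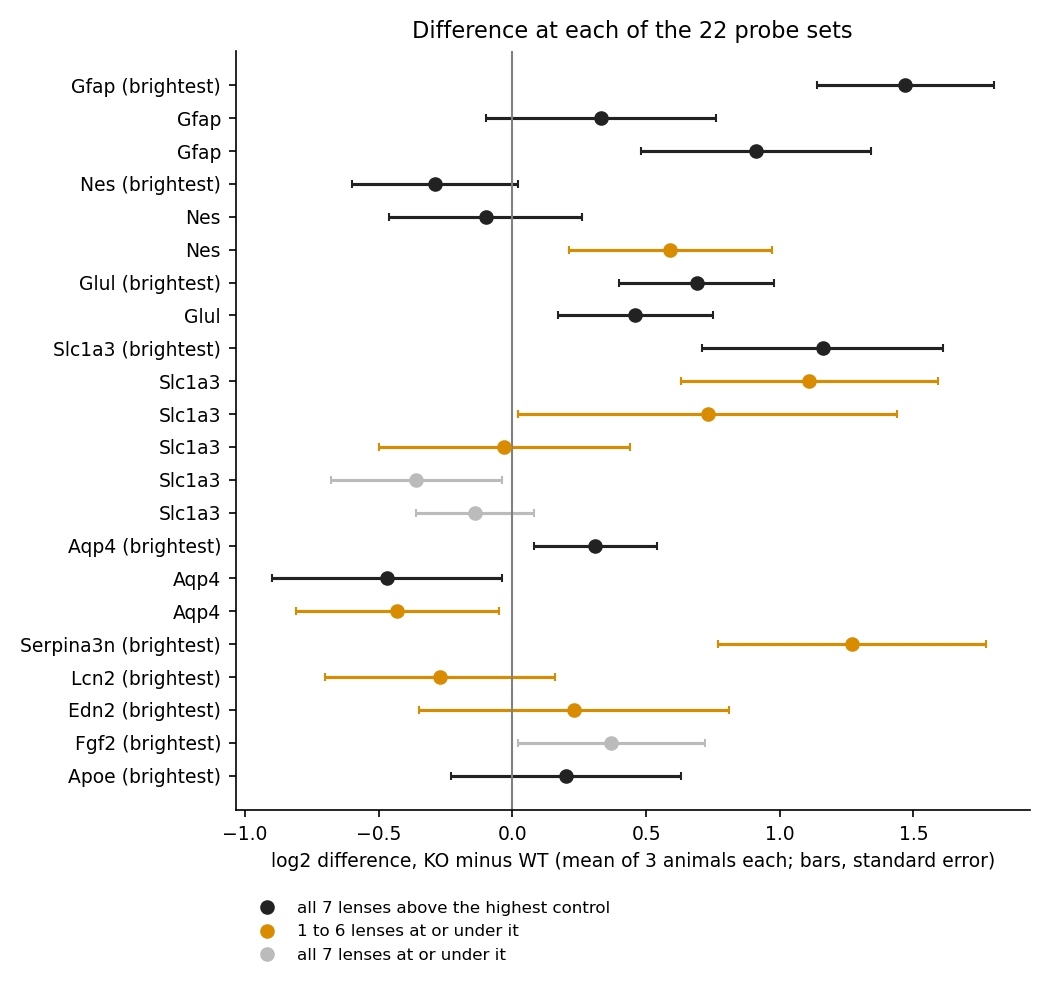
Log2 difference, KO minus WT, with its standard error at each of the 22 probe sets, coloured by the number of lenses that did not exceed the highest bacterial control. The differences run from -0.47 (Aqp4) to 1.47 (Gfap), and probe sets of Slc1a3 and Aqp4 fall on both sides of 0.

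Serpina3n encodes a secreted inhibitor of serine proteases that reactive astrocytes and acute-phase tissues make. Its single probe set had signals of 107 (1L), 141 (1R), 140 (4L) and 126 (7L) in KO lenses and 23.2 (2L), 106 (5L) and 20.6 (6L) in WT lenses. One WT lens, 5L, was thus at the KO level, and after normalisation it lay above 1L (7.02 against 6.88). The other 2 WT lenses were under the highest bacterial control. The log2 difference was 1.27 (SE 0.50), with levels of 7.15 ± 0.13 in the KO animals and 5.88 ± 0.99 in the WT animals (SD, n = 3), and its size is not resolved where WT lenses sit at background. Without 5L it was 1.85, and without 6L it was 0.93. Of 15 related Serpina genes listed 4 had a probe set of their own. These were 1 higher and 3 lower in KO (median -0.32), and 0 and 4 without WT animal 2. The 1 with an unadjusted p under 0.05, Serpina1b, was at or under the highest control in all 7 lenses. Serpina3a had 42.7 to 63.7 in KO lenses and 30.9 to 100 in WT, and Serpina3i at 9.77 to 75.8 and 15.4 to 53.6. Serpina3 genes are close copies, so some signal at one probe set can come from another.

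Lcn2 encodes lipocalin 2, an iron-siderophore carrier of the acute phase and of reactive astrocytes. Signals were 11.8 (1L), 11.1 (1R), 38.6 (4L) and 47.0 (7L) in KO and 55.6 (2L), 30.2 (5L) and 27.1 (6L) in WT lenses. With 5 of 7 lenses at or under the highest control, and the highest lens a WT one, no higher level in KO was seen (log2 difference -0.27, SE 0.43). Slc22a17, a receptor of lipocalin 2, had 1791 to 2996 in KO lenses and 1907 to 2656 in WT.

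Edn2 encodes endothelin 2, the peptide that stressed photoreceptors send to glia. It had 76.8 (1L), 176 (1R), 163 (4L) and 47.9 (7L) in KO and 191 (2L), 31.2 (5L) and 77.1 (6L) in WT lenses. The highest and the lowest lens were both WT, and the log2 difference of 0.23 (SE 0.58) became -0.28 without WT animal 5. Ednrb, the endothelin receptor of glia, differed by 0.16 (SE 0.30). Ece1, which cuts the endothelin precursors, was at 4697, 3776, 5704 and 3714 in KO against 3096, 3241 and 3257 in WT, a difference of 0.48 (SE 0.20) with a limma adjusted p of 0.99988.

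Fgf2 encodes basic fibroblast growth factor, which protects photoreceptors after light damage and acts on lens cells from the ocular fluids. Its probe set was at or under the highest control in all 7 lenses (2.28 to 35.9), so no level or fold is given. The receptors were measurable: Fgfr1 had 1182 to 1959 in KO lenses and 862 to 1282 in WT, Fgfr2 at 1313 to 2642 and 1933 to 2869, and Fgfr3 at 2921 to 3635 and 3017 to 4894. None of them passed in limma.

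Apoe encodes apolipoprotein E, a lipid carrier made by Mueller glia, astrocytes and macrophages. KO lenses had 3014 (1L), 1756 (1R), 3683 (4L) and 2801 (7L), and WT lenses 4480 (2L), 2890 (5L) and 1114 (6L). As with Edn2 the highest and the lowest lens were both WT (log2 difference 0.20, SE 0.43; -0.36 without WT animal 6). The receptors Lrp1 and Vldlr differed by 0.02 and 0.34. Over the list of receptors and partners, 9 of 20 measured genes were higher and 11 lower (median -0.03), and 12 and 8 without WT animal 2. None reached the limma threshold, and Ece1 was the 1 gene with an unadjusted p under 0.05.

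Genes that accompany these members in a glial response were counted from lists written with earlier results of these data known. Over 9 lists, 103 of 123 genes were measured, 55 higher and 48 lower in KO. Their median was 0.02 against -0.03 over all genes, and without WT animal 2 there were 57 higher and 46 lower, with the same median. By limma 0 passed the adjusted threshold, and unadjusted p-values under 0.05 were found for 15 of the 103, 13 higher and 2 lower. Over the brightest probe sets of all 18193 genes these were 740, 407 higher and 333 lower. As the lists were written with earlier results known, nothing is read from the 15. Among the cytokines, receptors and transcription factors of the injury response, 10 of 18 were higher, with a median of 0.12 (10, with 0.05, without WT animal 2). Socs3, the feedback inhibitor that STAT3 induces, had 1869, 2146, 3634 and 3389 in KO (1L, 1R, 4L, 7L) against 198, 435 and 597 in WT (2L, 5L, 6L). This is a log2 difference of 2.88 (SE 0.40), with a limma adjusted p of 0.263. As for Slc1a3, the name of this probe set carries the mark for probes that may also match other transcripts. Values of the 2 other Socs3 probe sets are not given here. Stat3 itself had 1433 to 2099 in KO lenses and 1025 to 1369 in WT (0.54, SE 0.20). Egr1, an immediate early transcription factor, was at 1688 to 2857 and 1063 to 1468 (0.67, SE 0.24), and its groups, like those of Stat3 and Socs3, did not overlap. The cytokines upstream were weak: Il6 was at or under the highest control in 7 of 7 lenses, Tnf in 6 and Osm in 5, while Lif had 58.8 to 114 in KO lenses and 47.6 to 113 in WT.

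Of 10 genes shared by reactive astrocytes of any kind 6 were higher (median 0.13), and 8 without WT animal 2 (median 0.33). Osmr, the oncostatin M receptor, was at 526, 1150, 668 and 1209 in KO (1L, 1R, 4L, 7L) against 409, 412 and 396 in WT lenses (1.04, SE 0.26). Timp1, a metalloproteinase inhibitor, had 2822, 1213, 2705 and 911 against 781, 580 and 494 (1.41, SE 0.37). In Timp1, as at the weaker Gfap probe sets, 1L and 4L were the higher KO lenses, whereas in Osmr they were the lower ones. Hspb1, Cd44, Cp and Vim, also of this list, differed by -0.03, 0.05, 0.00 and -0.19, and Cxcl10 and Aspg were near or under the control in most lenses. Of 9 genes of astrocytes after lipopolysaccharide 4 were higher (median -0.09; without WT animal 2, 5 and 0.27), led by Serping1, the C1 inhibitor, with 7269 to 12661 in KO lenses and 2996 to 5796 in WT (log2 levels 13.43 and 11.93, SE of the difference 0.26, limma adjusted p = 0.827), and Gbp2, a guanylate-binding protein (0.87, SE 0.28). Fbln5, also of this list, lay wholly lower in KO, at 147 to 325 against 333 to 401 in WT (-0.64, SE 0.32). Of 12 genes of astrocytes after ischaemia 6 were higher (median 0.05; without WT animal 2, 7 and 0.01). Tgm1, a transglutaminase, was at 1.65 (SE 0.63), with 2 of 3 WT lenses at or under the control. Emp1 was lower in KO by -1.08 (SE 0.60), with overlap between groups.

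**Figure D4:**
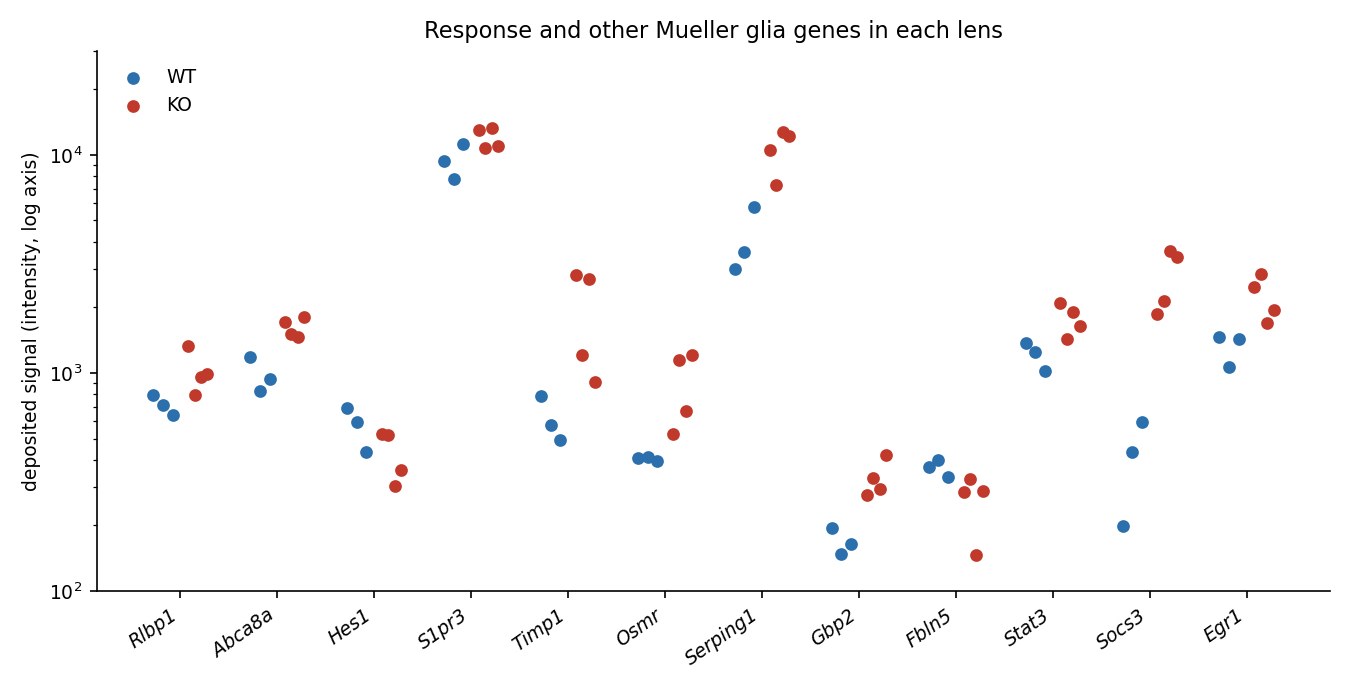
Deposited signal (log axis) of the 3 genes with the smallest p in each of 4 lists (other Mueller glia genes, reactive astrocytes of any kind, reactive astrocytes after lipopolysaccharide, injury cytokine signalling), 1 point per lens. Socs3 shows the widest gap, 1869 to 3634 in KO lenses and 198 to 597 in WT lenses, and none passed the adjustment.

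Whether glial markers as a whole were higher was looked at with genes outside the set. Of 14 other Mueller glia genes 9 were higher and 5 lower in KO (median 0.13, and 0.03 with the same counts without WT animal 2). Clu, Vim and Dkk3, bright in these lenses, made up 83.4% to 89.6% of the summed signal of the list, so that sum does not read glia. The sum of the other 11 genes was 12151 to 13626 in the KO and 11269 to 13537 in the WT lenses, and overlapped. Car14 was a large part of it, with 6257 in KO 1L and 6329 in WT 6L. This sum thus partly reads Car14, which had a lower mean in KO. By limma 0 passed, and 2 were past the unadjusted threshold. These were Abca8a, a transporter, with 1456 to 1805 in KO lenses and 826 to 1183 in WT (0.74, SE 0.20), and Rlbp1, the retinaldehyde-binding protein, at 794 to 1324 and 643 to 793 (0.47, SE 0.20). Kcnj10, the potassium channel of Mueller glia, overlapped at 163 to 289 and 147 to 213, and Dkk3 differed by -0.13 and Car14, a carbonic anhydrase, by -0.27. Clu and Vim, which lens cells also make, were bright in all 7 lenses. Of 9 astrocyte genes 6 were higher and 3 lower, with a median of 0.02 (4 and 5 without WT animal 2), and Aldh1l1, a folate enzyme that marks astrocytes, had 158 to 187 in KO lenses and 179 to 187 in WT (-0.13, SE 0.29).

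Markers of other retinal cells also differed in mean between the groups. All 8 measured ganglion and amacrine cell genes were higher in KO (median 0.89; all 8, with 1.10, without WT animal 2), and their summed signals were 2903 to 3693 (KO) and 1201 to 2135 (WT), without overlap. Gad1, the GABA-making enzyme of amacrine cells, was at 720 to 1010 and 170 to 625 (1.29, SE 0.37), and Thy1, a surface protein of ganglion cells, at 318 to 562 and 169 to 262 (0.83, SE 0.29). All 6 bipolar cell genes were higher as well (median 0.58, sums 5399 to 8642 and 3667 to 5873; all 6, with 0.72, without WT animal 2). All 8 pigment epithelium genes were lower (7 of 8 without WT animal 2; median -0.41, sums 15620 to 25489 and 11305 to 41262). Among the 8, Rrh differed by only -0.00. Ttr made up most of these sums, with 14392 of 15620 in KO 1L and 9128 of 11305 in WT 2L, so they mainly read that gene. Rpe65 did not overlap, at 116 to 264 in KO lenses and 278 to 679 in WT. The sums of the rod genes, given above, overlapped, though 9 of the 11 genes were lower in KO (5 without WT animal 2). One of them, Prph2, did not overlap, at 356 to 575 in KO lenses and 627 to 786 in WT (-0.48, SE 0.23). By limma 0 genes of these lists passed. Of the 8 ganglion and amacrine genes 5 were past the unadjusted threshold, against 740 of 18193 over all genes. The part of inner retinal RNA in the Gfap, Glul and Slc1a3 values was not tested.

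Macrophage and microglia markers lay higher in KO at 8 of 10 genes (median 0.41; 9, with 0.49, without WT animal 2), with summed signals of 1620 to 2997 (KO) and 919 to 1556 (WT). Csf1r, the receptor for macrophage growth factor, had 997, 868, 1445 and 1063 in KO (1L, 1R, 4L, 7L) and 474, 886 and 361 in WT (2L, 5L, 6L). Csf1r was the largest part of the sum in every lens, with 868 of 1620 in KO 1R and 474 of 1297 in WT 2L. Csf1r itself overlapped between groups, with 886 in WT 5L and 868 in KO 1R. The sums parted only narrowly, at 1620 in KO 1R and 1556 in WT 5L. Csf1r shared with Serpina3n the high WT lens 5L, as did C1qb and C1qc, whereas C1qa and Cx3cr1 had their lowest WT signal there (25.3 and 51.7). Aif1 was at or under the control in all 7 lenses, Itgam in 5 and Cd68 in 4. By limma 0 passed, and 4 of the 10 were past the unadjusted threshold, 3 higher and 1 lower, against 740 of 18193 over all genes. Of the lists for other neighbouring tissue, 7 of 7 blood and endothelium genes were higher (median 0.21; 5 of 7 without WT animal 2). Of these, Pecam1 and Hba-a1 were at or under the control in all 7 lenses, Slc4a1 in 5 and Alas2 in 4, so their direction is not resolved. Lower were 4 of 5 corneal surface genes (median -1.39), 4 of 5 stromal genes (median -0.43) and 6 of 7 lens fibre genes (median -0.14). Without WT animal 2 these were 4 (-1.13), 4 (-0.80) and 5 (-0.02). Krt12 was at 530 in KO 7L, against 4671 to 10667 in the other KO lenses and 3447 to 11505 in WT. Upk1b did not overlap, at 303 to 604 in KO lenses and 703 to 1418 in WT. In these lists, too, 0 passed. The part of these cells in the Serpina3n and Apoe values was not tested.

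**Figure D5:**
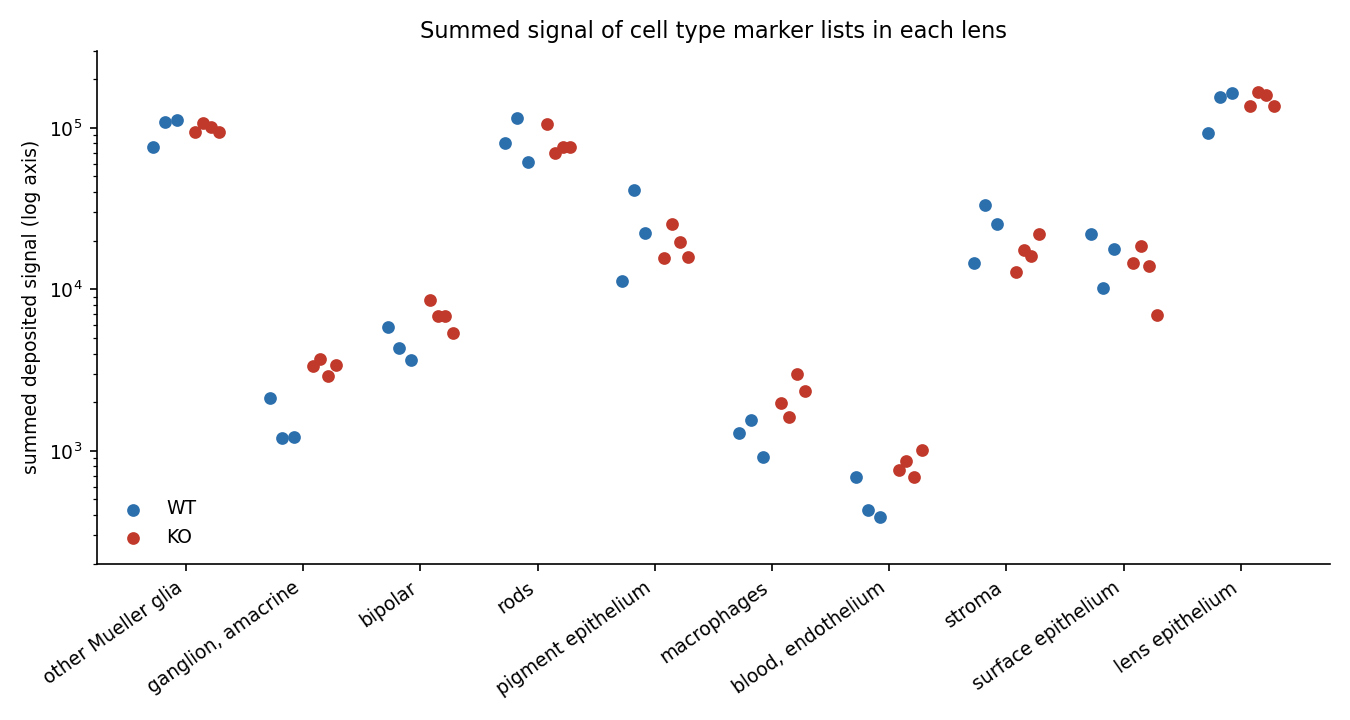
Summed deposited signal (log axis) of the measured genes of 10 marker lists, 1 point per lens, WT in blue and KO in red. The ganglion and amacrine sum (2903 to 3693 in KO, 1201 to 2135 in WT) and the macrophage sum do not overlap between groups. Csf1r is the largest part of the macrophage sum in every lens. The macrophage sums part only narrowly (1620 in KO 1R, 1556 in WT 5L), and Csf1r itself overlaps. The blood and endothelium sums (688 to 1016 and 387 to 686) barely part, and the rod and lens epithelium sums overlap. The sum marked other Mueller glia is mostly Clu, Vim and Dkk3.

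The genes most like Gfap and Serpina3n over the 7 lenses were found by Pearson correlation of log2 values, among 11706 and 11707 genes above the median level. The points share arrays, and 1L and 1R share an animal, so these values only describe the lenses. For the brightest Gfap probe set they were Cask (r = 0.984), Sulf1 (0.971), Parp3 (0.968), Tmem98 (0.965) and Acat1 (0.959). Cask, a membrane scaffold kinase, likewise had its highest level in 4L and its lowest in 2L, with 11.14 to 11.45 in KO lenses and 10.41 to 10.93 in WT. None of the 5 is a glial marker of the lists used here. For Serpina3n they were Slc35f3 (0.954), Csf1r (0.951), Adck1 (0.946), Supt16 (0.940) and C1qb (0.940). C1qb, a complement C1q chain that macrophages and microglia make, and Csf1r are both on the macrophage list. Both had 5L as their highest WT lens, within the KO range, which a choice by likeness to Serpina3n favours. Of the other genes on that list, C1qc and Ptprc also had their highest WT signal in 5L (128 and 52.5). In C1qa and Cx3cr1, however, 5L was the lowest WT lens (25.3 and 51.7), and Lyz2 was highest in 2L (368).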

How the data were processed

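The deposited values are linear intensity values, 1 summary signal per probe set and array. Per the labels' protocols, RNA of each laser-captured lens was amplified in 2 cycles and biotin-labelled. The summary software and background correction were not given in the sources used here. Tested on the table, each array had a trimmed mean of 500.0, so the arrays share a scale. The number of arrays limits the precision.

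Here 64 control probe sets were left out, 16 was added, and log2 values were quantile normalised over 45037 probe sets with no filter, which understates changes of weak probe sets. The 6 animals were compared with limma 3.58.1 (R 4.3.3; lmFit, eBayes with intensity trend, two-sided) and Benjamini-Hochberg adjustment over all probe sets, tested on simulated data. The brightest probe set stood for a gene. Symbols came from the platform annotation (34945 probe sets with 1 symbol, 932 with several, 9160 with none), and all 10 members matched the reference table by gene number.

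Members and lists were chosen with earlier results of these data known. Named genes were the members, up to 3 genes with the smallest p and the defining markers of each list, and the 5 genes most like Gfap and Serpina3n; other list genes were named after their values were seen. Alternatives were the 7 lenses as samples, either lens of KO animal 1, median centring, signals as deposited, a filter on low values, pseudocounts of 1 and 64, no trend, array weights, each animal left out and the mean of a gene's probe sets. List counts without WT animal 2, the Mueller glia sum without its 3 brightest genes and the member count without Fgf2 were added after seeing the data.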

Additional observations from a re-analysis of the deposited data

Results flagged for a closer look

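Within the 4 KO lenses, 1 lens stood far from the other 3 at 5 of the 77 probe sets examined, where about 1 in 20 is met by chance, and 1 of the 5 was among the 22 probe sets of the members. The measure is the gap to the nearest lens over the range of the 4, on the log2 scale, set against Dixon's critical value at the 95% level. It was 0.875 for Slc1a3 at its brightest probe set, where 7L was at 7.73 and the others at 9.23 to 9.44. It was 0.863 for Nefl (4L low), 0.843 for Krt5, a keratin of surface epithelium (7L low), 0.878 for Gngt1, a rod transducin chain (1L high), and 0.868 for Pou4f1, a ganglion cell transcription factor (1L low). As 1L and 1R are from 1 animal, the 4 lenses are not independent, and the cause was not tested.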

How the results depend on the processing

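The count of probe sets past an adjusted p of 0.05 was 3 and stayed at 2 to 3 under every alternative run, with 2 to 3 when each animal was left out and 2 without the intensity trend. Members among them were 0 throughout, as were genes of the response and partner lists. Of the 10 members, 7 to 9 were higher in KO over the alternatives, with medians of 0.24 to 0.70 (the filter on low values kept 8 members). In 6 of 163 refits of a member's difference its sign changed: Nes (0.07) and Aqp4 (-0.20) with the mean of all probe sets, Lcn2 without KO animal 1 (0.10), Edn2 without KO animal 4 (-0.12) or WT animal 5 (-0.28), and Apoe without WT animal 6 (-0.36). The Gfap difference ran from 0.91, with the mean of its 3 probe sets, to 1.69, that of Serpina3n from 0.78 to 1.85, Slc1a3 from 0.41 to 1.71 and Glul from 0.48 to 0.98. Median centring and the signals as deposited changed no sign at the brightest probe sets, and moved the median of all probe sets to -0.067 and 0.027. Signal over background limits Lcn2, Fgf2 and the WT lenses of Serpina3n.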
